A study of Arabidopsis thaliana and Zea mays subsp. mays with 14 samples.

Results

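Open chromatin of roots was set against that of whole seedlings in Arabidopsis thaliana, at the same number of nuclei. The method, ATAC-seq on sorted nuclei, lets the transposase Tn5 insert sequencing adapters into accessible DNA. The comparison was chosen by sample title: 2 libraries from 50000 sorted root nuclei and 2 libraries from 50000 sorted whole-seedling nuclei, or 4 of the 14 samples of the series. Both tissues came from the wild-type accession Col-0, aged 7 days and grown upright on plates of LS medium with sugar under 16 hours of light a day. Fresh tissue was chopped, and its nuclei went through a density gradient before the sort. A whole seedling contains its root, so the comparison is of roots against a mixture that includes roots. The labels do not say that the libraries of a tissue came from separate plants or plates. The p-values therefore measure only how far libraries vary, and that spread may be technical. Their estimate of spread also took in the 6 other seedling libraries with a region list. These came from fewer sorted nuclei, from nuclei labelled as crude and from an H2AX-GFP line. With only the 4 libraries of the comparison in the fit, no gene had an adjusted p under 0.05 (limma). Called regions were deposited separately for each library, without read counts, so the depth behind a region is unknown.

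In a plant, regulatory DNA near active genes is kept free of nucleosomes and can be cut by Tn5. Green cells of cotyledons and leaves run photosynthesis and cover themselves with a waxy cuticle. Roots carry out little photosynthesis and take up water and minerals; they also make triterpenes of their own, whose biosynthetic genes lie side by side in the chromosome. In bulk nuclei, a smaller share of nuclei of one cell type and a less open locus in each nucleus cannot be told apart.

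Seedling libraries 1 and 2 held 27632 and 23303 regions, which covered 22.39 and 21.02 Mb. Root libraries 1 and 2 held 23186 and 22138 regions, which covered 21.56 and 15.76 Mb. Root library 2 stood apart, with the smallest covered length and a median region of 548 bp against 634 to 652 bp in the other 3. Mean covered length was 21.7 ± 0.97 Mb in seedlings and 18.66 ± 4.1 Mb in roots (SD, n = 2 each), a gap smaller than the root SD. For each protein-coding gene, the bases covered by called regions from 1000 bp outside to 200 bp inside both ends were summed, up to 2400. Over all genes tested the median of root minus seedling was -83 bases, so differences below are to be read against that shift. The counts of calls are therefore also given with each library reduced to its 22138 best-scoring regions, where the median was -62. After division by each library's covered length the median was 10.5.

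Of 23893 genes tested, 138 had fewer covered bases in roots and 25 had more at an adjusted p under 0.05 (limma with all 10 libraries of the series, Benjamini-Hochberg over all genes). These shares were 0.578% and 0.105%, and such genes are named as called below. The 138 lay in 112 separate stretches of overlapping genes, and the 25 in 25. Of the lower genes, 51 had no covered base in either root library, 61 were covered in both, and in all 138 both root libraries lay below both seedling libraries. Of the higher genes, 14 had no covered base in either seedling library and 6 were covered in both. Some of the 14 had no base in any seedling library of the series and were tested only through the root libraries. Groups at 0 add no spread to the shared estimate, so the p-values of such genes may be too low. Groups that do not overlap are common without a call: 7051 genes, or 29.5%, lay lower in both root libraries than in both seedling libraries, and 1841, or 7.71%, lay higher. With equal numbers of regions, limma called 190 of 22944 genes lower (0.828%) and 90 higher (0.392%), among them 124 of the 138 and 24 of the 25. After division by covered length 22 of the 138 and 14 of the 25 were still called. The calls rest on every library of the comparison: limma called no gene once root library 1, either seedling library or either library of 500 seedling nuclei (these enter the estimate of spread) was left out. Without root library 2 it called 13 higher and 0 lower genes (1037 genes were lower there at an unadjusted p under 0.05).

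**Figure D1:**
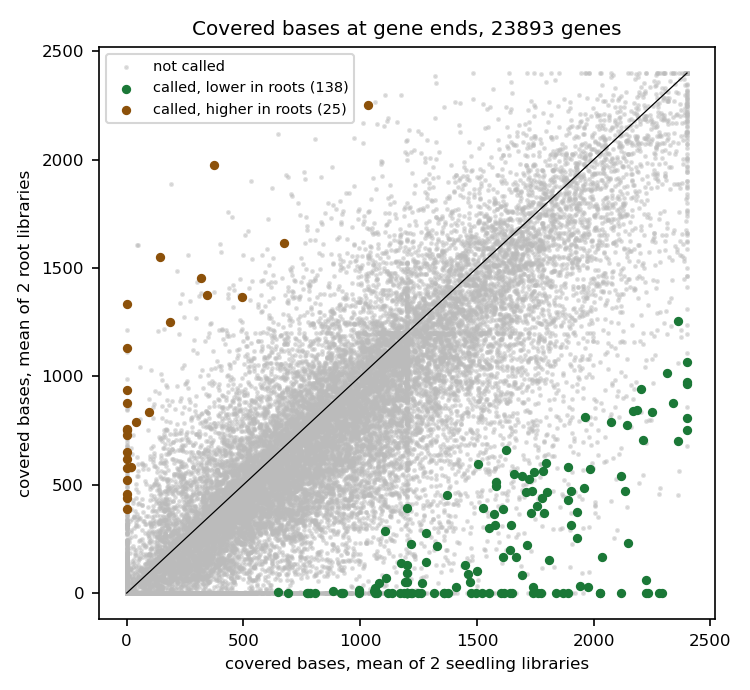
Covered bases at both gene ends, as the mean of the 2 seedling libraries (x axis) and of the 2 root libraries (y axis), one point per gene tested, with the line of equality. The 138 called lower genes lie along the lower edge and right side, the 25 called higher genes along the left side.

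Photosynthesis genes had the largest deficit of covered bases in roots among the 15 lists. A list of 46 genes of the photosystems and their antenna had a mean of 1408.7 and 1818.0 covered bases per gene in the seedling libraries, and 828.9 and 673.2 in the root libraries. All 46 had fewer bases in roots, and in 42 of the 46 the groups did not overlap, against 29.5% of all genes. The median difference was -819.5 bases. A covered base was found at all members in both seedling libraries, and at 89.1% and 73.9% of members in the root libraries. LHCB2.2, an antenna protein of photosystem II, had 1612 and 2005 bases in seedlings and 0 and 302 in roots, a difference of -1657.5 ± 257 (SE; limma, adjusted p = 0.0439). LHCB1.4, of the same antenna, had 1515 and 1873 in seedlings and 167 and 0 in roots (-1610.5 ± 181, limma, adjusted p = 0.0195). PSAL, a subunit of photosystem I, had 1399 and 1756 in seedlings and 351 and 279 in roots (-1262.5 ± 184, limma, adjusted p = 0.0372). These were the 3 called members of 46, against 0.578% of all genes, and each seedling library lay above both root libraries by more than 1000 bases. With equal numbers of regions the list again held 3 lower calls, but LHCB1.4 was not among them (limma, adjusted p = 0.0504). After division by covered length no member was called (limma, adjusted p = 0.147 for LHCB2.2, 0.0875 for LHCB1.4 and 0.131 for PSAL). LHCB1.5 had the largest difference of the list, with 1662 and 1899 bases in seedlings and 227 and 0 in roots, and was not called (limma, adjusted p = 0.0948). Not every photosystem gene lost its regions in roots: PSBO2, of the oxygen-evolving complex, had 2400 and 2400 bases in seedlings and 2400 and 2094 in roots. FD2, the leaf ferredoxin, had 1233 and 1802 in seedlings and 1210 and 1655 in roots, with overlapping groups. Some of these families hold near-identical copies, and the sources used here do not state how reads shared by copies were placed.

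The enzymes that use the captured light showed the same order. Of 28 tested genes of carbon fixation and photorespiration, 4 fell and 0 rose (limma; 13 were lower and 0 higher at an unadjusted p under 0.05), with a median difference of -528.8 bases. The 4 calls stand against 0.578% of all genes, and 20 of the 28 were lower without overlap against 29.5%. RBCS2B, a Rubisco small subunit gene, had 2122 and 2323 bases in seedlings and none in either root library (limma, adjusted p = 0.0195). Its neighbour RBCS1B had 1693 and 1829 in seedlings and none in roots (limma, adjusted p = 0.0195). RBCS3B, the third gene of the row, had 1328 and 2142 bases and none in roots, and was called only with equal numbers of regions (limma, adjusted p = 0.0607, and 0.0493 with equal numbers). In contrast RBCS1A, which lies elsewhere, had 2400 bases in both seedling libraries and 2235 and 1270 in roots. FBA2, a plastid fructose-bisphosphate aldolase, had 1560 and 1437 bases in seedlings and 204 and 0 in roots, and was called (limma, adjusted p = 0.023). GOX2, a glycolate oxidase of photorespiration, had 1729 and 1836 in seedlings and 503 and 625 in roots (limma, adjusted p = 0.0394). HCEF1, a plastid fructose bisphosphatase, was at the other end of the list, with 1200 and 836 in seedlings and 1150 and 1121 in roots.

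Among 21 genes of chlorophyll synthesis and plastid regulation 1 fell and 0 rose (limma; 11 and 0 at an unadjusted p under 0.05). That gene was GLK1, a transcription factor of chloroplast development, with 1280 and 1543 bases in seedlings and 3 and 50 in roots (limma, adjusted p = 0.0384). Its paralogue GLK2 had 1346 and 1659 bases in seedlings and 590 and 343 in roots and was not called by its window (limma, adjusted p = 0.146). A merged region at GLK2, on chromosome 5 from 17799320 to 17802033, was called, with 1957 and 1962 bases in seedlings and none in roots (limma, adjusted p = 0.034). GNC, a GATA factor of greening, had 1500 and 2400 in seedlings and 870 and 0 in roots (limma, adjusted p = 0.218). The list's median difference was -521.5 bases, and 15 of its 21 genes were lower without overlap, against 29.5% of all genes (0.578% were called lower). SIG5, a sigma factor of the plastid RNA polymerase, had 1088 and 1503 bases in seedlings and 1601 and 1070 in roots, so that its groups overlapped.

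Light signalling genes split. Of 24 tested, 3 fell, all of them growth or phototropism factors, and 0 rose (limma; 6 and 0 at an unadjusted p under 0.05). The 3 calls stand against 0.578% of all genes. PKS4, a substrate of phytochrome kinase activity that acts in phototropism, had 2268 and 1786 bases in seedlings and none in either root library (limma, adjusted p = 0.0312). PKS2, of the same family, had 1655 and 1663 in seedlings and 569 and 532 in roots (limma, adjusted p = 0.0269). PIF7, a bHLH factor of the shade response, had 919 and 1200 in seedlings and 19 and 0 in roots (limma, adjusted p = 0.034). The photoreceptor PHYB, in contrast, had 1651 and 1502 bases in seedlings and 1810 and 1799 in roots (limma, adjusted p = 0.756). HY5, a bZIP factor that promotes greening, had 757 and 628 in seedlings and 668 and 648 in roots, with overlapping groups. The median difference of the list, -274.8 bases, was the least shifted of the light-related lists, and 13 genes were lower and 2 higher without overlap, against 29.5% and 7.71% of all genes. The median was -56.7 bases without root library 2 and -558.2 without root library 1.

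**Figure D2:**
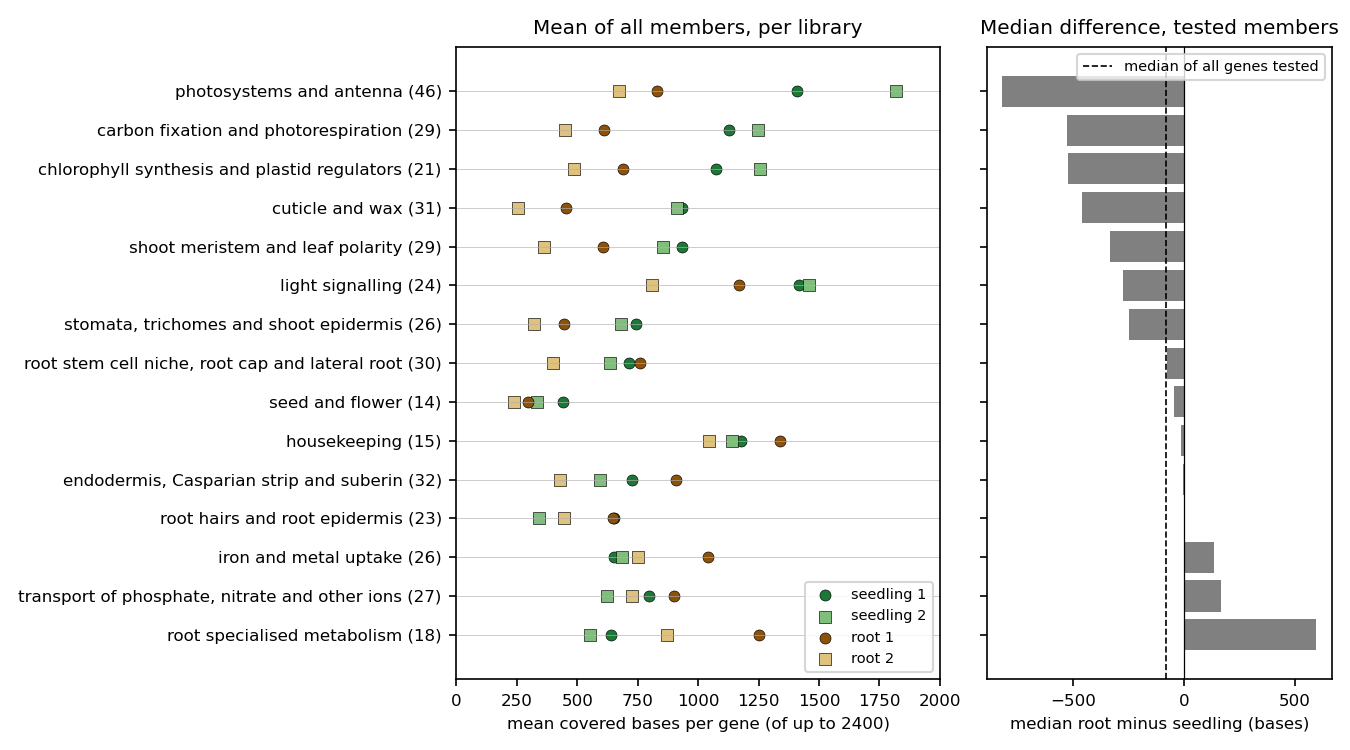
For 15 gene lists (number of members in brackets), the left panel shows the mean covered bases per gene over all members in each of the 4 libraries, and the right panel the median root minus seedling difference over tested members, with the median of all genes tested (-83) as a dashed line. The photosystem list lies farthest to the left (-819.5 bases) and the root specialised metabolism list farthest to the right (597.2 bases).

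Genes of the shoot surface were less covered in roots as well. Of 30 tested genes of cuticle and wax, 4 fell and 0 rose (limma; 13 and 0 at an unadjusted p under 0.05), with a median difference of -457.8 bases. The 4 calls stand against 0.578% of all genes, and 19 of the 30 were lower without overlap against 29.5%. KCS6, which elongates very long chain fatty acids for wax, had 1729 and 1818 bases in seedlings and none in either root library (limma, adjusted p = 0.0195). BDG1, a hydrolase needed for the cuticle, had 1752 and 1200 and none in roots (limma, adjusted p = 0.0372). ATT1, a fatty acid oxidase of cutin synthesis, had 2022 and 1762 in seedlings and 661 and 197 in roots (limma, adjusted p = 0.0361). FDH, or FIDDLEHEAD, an epidermal fatty acid elongase, had 1443 and 1118 in seedlings and 172 and 115 in roots (limma, adjusted p = 0.0424). In each of these 4 the seedling libraries lay above both root libraries. DCR, an acyltransferase of cutin synthesis, differed little, with 565 and 562 bases in seedlings and 554 and 562 in roots.

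No gene was called among 28 of the shoot meristem and leaf polarity or among 23 of stomata, trichomes and shoot epidermis (limma; 8 and 6 were lower and 1 and 0 higher at an unadjusted p under 0.05). Their median differences were -334 and -249 bases, with 18 and 15 genes lower without overlap, against 29.5% of all genes. The first was -180 without root library 2, and the second -394 without root library 1 and -379 without seedling library 2. A merged region at YAB2, a leaf polarity factor, was called, with 716 and 892 bases in seedlings and none in roots (limma, adjusted p = 0.0444). Its absence was not particular to roots, since both libraries of 500 seedling nuclei also had 0 bases there. The crude libraries had 499 and 722, and the H2AX-GFP libraries 1012 and 899. EPFL9, the peptide that promotes stomata, had 851 and 1405 bases in seedlings and none in roots (limma, adjusted p = 0.116). TCP3, a factor of leaf growth, had 2122 and 1757 in seedlings and 896 and 0 in roots (limma, adjusted p = 0.308). CLV3, the peptide that limits the shoot stem cells, went the other way, at 68 and 71 bases in seedlings and 345 and 405 in roots (limma, adjusted p = 0.232). Over the 7 lists of shoot functions together, 15 of 200 tested genes fell, or 7.5% against the 0.578% of all genes, and 142, or 71%, were lower without overlap, against 29.5%. Another 11 of the 206 members had no covered base in any of the 4 libraries.

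**Figure D3:**
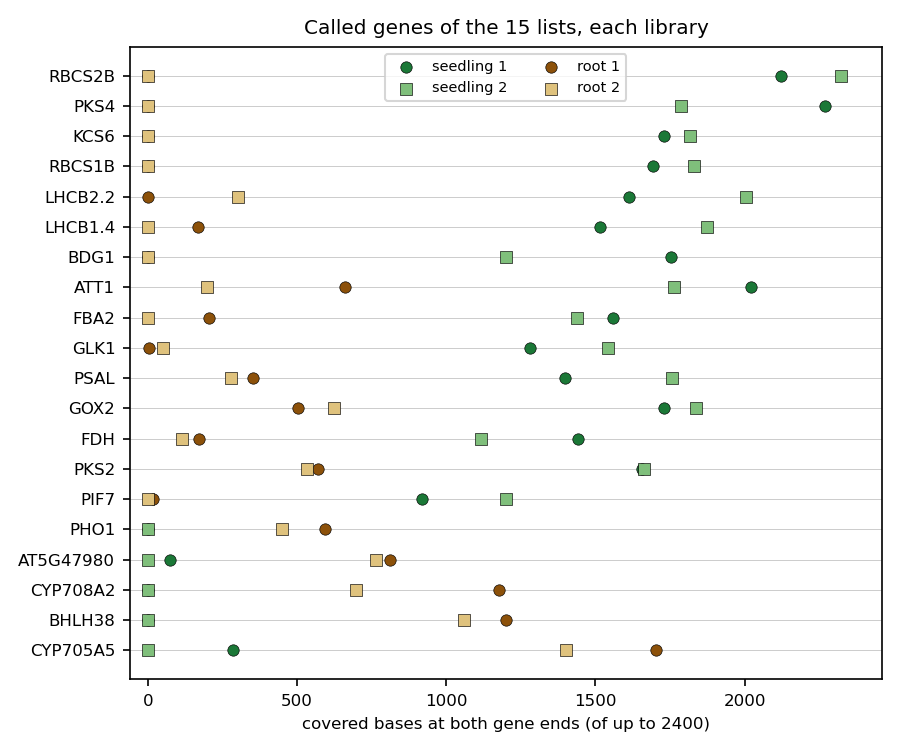
Covered bases at both gene ends (x axis) in each of the 4 libraries for the 20 called genes of the 15 lists, ordered by difference. Seedling points lie to the right of root points in the upper 15 genes and to the left in the lower 5.

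Root specialised metabolism had the largest gain of covered bases in roots among the 15 lists. Of 16 tested genes for root triterpenes, ER body proteins and related products, 3 rose and 0 fell (limma; 6 and 0 at an unadjusted p under 0.05). The 3 calls stand against 0.105% of all genes. The median difference was 597.2 bases, and 12 of the 16 were higher without overlap, against 7.71% of all genes. Without root library 1 the median was 243 bases. The 3 called genes are neighbours in the thalianol cluster, which makes a triterpene of the root. CYP705A5, a cytochrome P450 of this pathway, had 286 and 0 bases in seedlings and 1702 and 1402 in roots (limma, adjusted p = 0.0269). CYP708A2, the thalianol hydroxylase, had 0 and 0 in seedlings and 1178 and 698 in roots (limma, adjusted p = 0.0431). It had no base in any seedling library of the series, and its SE of 144 lay below the SD of 339 between the root libraries. Its p-value may therefore be too low. AT5G47980, the gene next to CYP705A5, had 76 and 0 in seedlings and 812 and 763 in roots (limma, adjusted p = 0.0195). In all 3 every root library lay above every seedling library. THAS1, the thalianol synthase itself, had 824 and 247 bases in seedlings and 2103 and 984 in roots and was not called (limma, adjusted p = 0.509). In the map of the cluster, root regions were wider or more numerous near each of these 4 genes, and several had narrower counterparts in the seedling lists.

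Other triterpene genes had the same order of values. MRN1, the marneral synthase, had no covered base in seedlings and 472 and 300 in roots (limma, adjusted p = 0.0805). PEN3, a triterpene synthase, had 58 and 0 in seedlings and 840 and 617 in roots, and was called with equal numbers of regions (limma, adjusted p = 0.0577, and 0.0216 with equal numbers). PYK10, the main beta-glucosidase of root ER bodies, had 1510 and 1630 bases in seedlings and 2400 and 2249 in roots (limma, adjusted p = 0.281). Against this order, AT1G33750, a list member with no symbol in the annotation, had 292 and 708 in seedlings and none in roots (limma, adjusted p = 0.548).

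**Figure D4:**
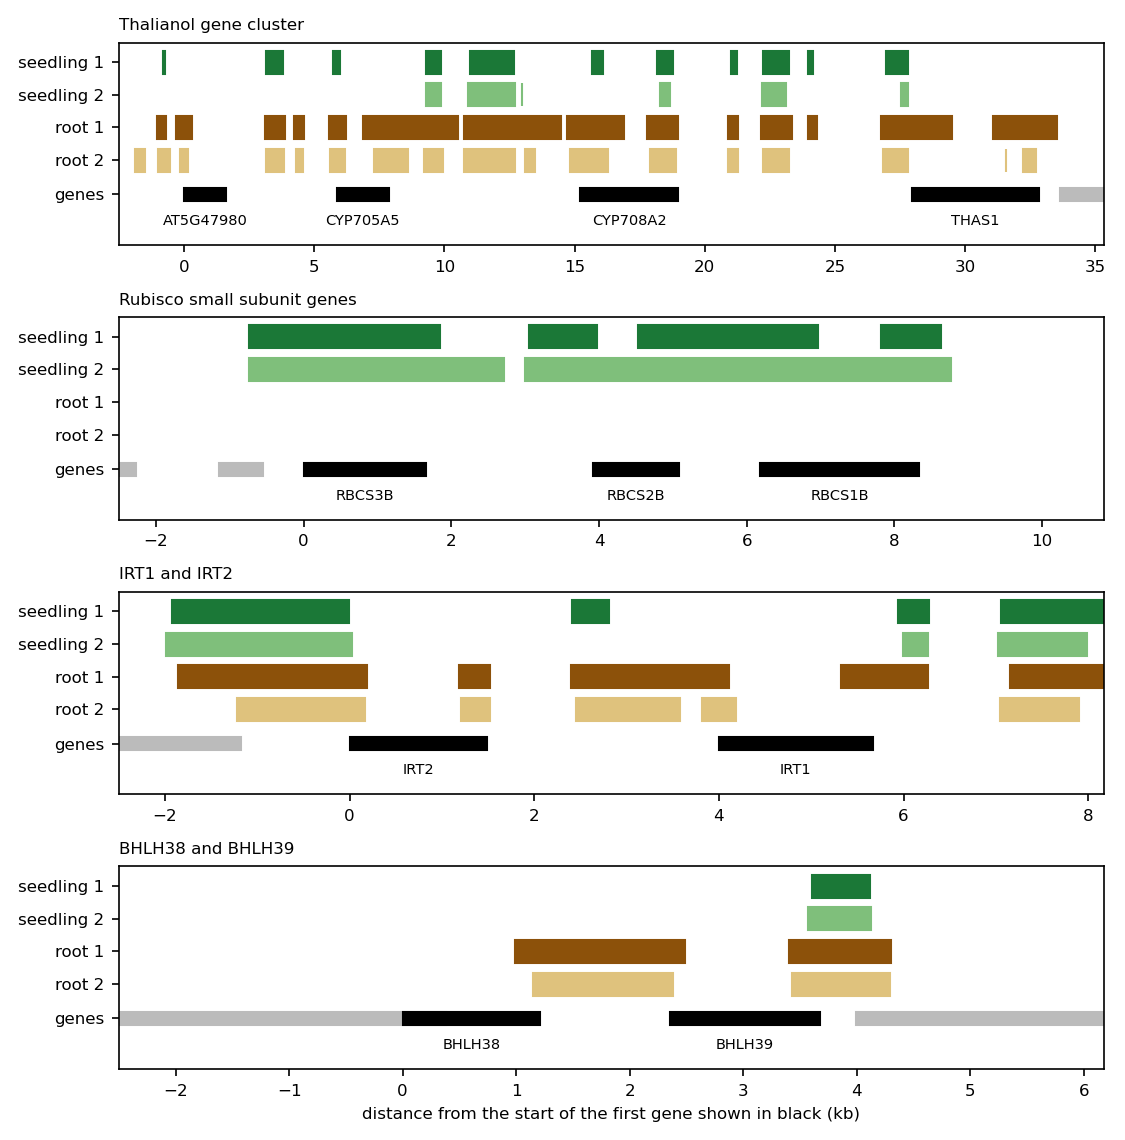
Called regions (coloured bars) in the 4 libraries around 4 gene groups, with genes as black bars (others grey) and distance in kb from the start of the first gene in black on the x axis. Root libraries show no region over the 3 Rubisco small subunit genes, and wider or added regions in the thalianol cluster, between IRT2 and IRT1, and between BHLH38 and BHLH39.

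Iron and metal uptake genes also lay above the median of all genes. Of 24 tested, 1 rose and 0 fell (limma; 4 and 0 at an unadjusted p under 0.05), with a median difference of 135.2 bases. The 1 call stands against 0.105% of all genes. Of the 24, 9 were higher and 4 lower without overlap, against 7.71% and 29.5% of all genes. The median was 1.5 bases without root library 1 and 302 without root library 2. BHLH38, a bHLH regulator that responds to low iron, had no covered base in either seedling library and 1200 and 1061 in roots (limma, adjusted p = 0.0346). Its neighbour and paralogue BHLH39 had 516 and 551 bases in seedlings and 1959 and 1844 in roots, without overlap but not called (limma, adjusted p = 0.25). NAS1, which makes the metal chelator nicotianamine, had 628 and 670 in seedlings and 2152 and 2082 in roots, and was called with equal numbers of regions (limma, adjusted p = 0.0933, and 0.0241 with equal numbers). IRT1, the iron transporter of the root epidermis, had 333 and 273 in seedlings and 1914 and 955 in roots (limma, adjusted p = 0.166). All 4 had higher values in both root libraries than in both seedling libraries. NAS4, of the same family as NAS1, had 360 and 1056 in seedlings and 243 and 0 in roots (limma, adjusted p = 0.466).

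Of 24 tested genes for transport of phosphate, nitrate and other ions, 1 rose and 0 fell (limma; 4 higher and 1 lower at an unadjusted p under 0.05). PHO1, which loads phosphate into the xylem, had no covered base in either seedling library and 595 and 450 in roots (limma, adjusted p = 0.0424); with equal numbers of regions it was not called (adjusted p = 0.1). NRT1.9, a nitrate transporter, was called only with equal numbers, where it had none in both seedling libraries and 706 and 469 in roots (limma, adjusted p = 0.0364). AMT1;3, an ammonium transporter, had 2068 and 1207 bases in seedlings and the full 2400 in both root libraries (limma, adjusted p = 0.516), while AMT1;1 had 2047 and 2242 in seedlings and 1753 and 1390 in roots (limma, adjusted p = 0.608). The 1 call of the list stands against 0.105% of all genes. The list's median difference was 165.5 bases, with 8 genes higher and 6 lower without overlap, against 7.71% and 29.5% of all genes. The median was -21.7 bases without root library 1, 296.5 without seedling library 1 and 77 without seedling library 2.

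Genes of root anatomy held no call with all regions. No gene was called among 21 of root hairs and root epidermis, 29 of the endodermis, Casparian strip and suberin, or 22 of the root stem cell niche, cap and lateral root (limma; 2, 1 and 2 were higher and 1, 2 and 2 lower at an unadjusted p under 0.05). Their median differences were 0, -4.5 and -76.8 bases, or 83, 78.5 and 6.2 bases above that of all genes. The housekeeping list lay 70.5 bases above it, so the medians of these lists do not stand apart from housekeeping genes. All 3 medians moved with single libraries, to -100.5, -164 and -150 without root library 1 and to 133.5, 151.5 and -5.2 without root library 2. With equal numbers of regions 1 root hair list gene was called in each direction. RSL4, a bHLH factor of root hair growth, then had 30 and 31 bases in seedlings and 1026 and 910 in roots (limma, adjusted p = 0.0142), against 720 and 31 in seedlings with all regions. WER, a MYB factor of the non-hair cells that is also active in the shoot epidermis, had 756 and 843 bases in seedlings and none in roots (limma, adjusted p = 0.0605, and 0.0463 with equal numbers). UPB1, a bHLH factor of root growth, had 269 and 0 in seedlings and 1613 and 809 in roots (limma, adjusted p = 0.154). PIN4, an auxin exporter, had 1270 and 1539 in seedlings and 339 and 258 in roots (limma, adjusted p = 0.104). The merged region at PIN4 was called lower, with 2792 and 3295 bases in seedlings and 611 and 0 in roots (limma, adjusted p = 0.0472). FAR1, a fatty acyl reductase of suberin, had 1717 and 1675 in seedlings and 595 and 680 in roots (limma, adjusted p = 0.0578). AT4G34600, of the endodermis list, had 951 and 1081 in seedlings and 1857 and 1574 in roots (limma, adjusted p = 0.441). Over the 6 root lists, 5 of 136 tested genes rose, or 3.68% against 0.105% of all genes, and 38, or 27.9%, were higher without overlap, against 7.71%. Another 24, or 17.6%, were lower without overlap, against 29.5% of all genes.

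The root libraries differed from each other at several suberin genes. GPAT5, an acyltransferase of suberin, had 1505 bases in root library 1 and none in root library 2, with 415 and 0 in seedlings. KCS2, a suberin fatty acid elongase, had 1437 and 0 in roots and 327 and 0 in seedlings. FAR5, a reductase of the same pathway, had 1023 and 0 in roots and none in seedlings. The list's mean was 907.5 bases per gene in root library 1 and 430.6 in root library 2, on either side of the seedling values of 726.0 and 595.3. Over all genes, 120 had 1000 or more bases in root library 1 and none in root library 2, and 2 the reverse; between the seedling libraries these counts were 58 and 2. The auxin carriers AUX1 (1771 and 0 in roots) and PIN3 (1623 and 0) were among the 120, and their seedling values lay between 1828 and 1888.

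Housekeeping genes were set beside the other lists. None of 15 was called (limma; 1 higher and 0 lower at an unadjusted p under 0.05), and the median difference was -12.5 bases. Among all genes 0.578% were called lower and 0.105% higher, so the absence of a call among 15 shows little. Without overlap 3 were higher and 1 lower, against 7.71% and 29.5% of all genes. The list's median lay 70.5 bases above that of all genes, near the 83 and 78.5 of the root hair and endodermis lists. ACT2, an actin, had 2059 and 2041 bases in seedlings and 2064 and 2076 in roots. UBC21, a ubiquitin-conjugating enzyme, was the highest, at 796 and 678 in seedlings and 1460 and 1257 in roots (limma, adjusted p = 0.127), and ACT7 the lowest, at 1879 and 2063 in seedlings and 1977 and 618 in roots. After division by covered length the list's median was 125.3 bases, against 10.5 for all genes. Of 10 tested genes of seed and flower none was called (limma; 0 higher and 1 lower at an unadjusted p under 0.05). Their mean was 442.5 and 334.3 bases in seedlings and 297.6 and 236.7 in roots.

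Outside the lists, the largest decreases with a gene symbol were at 10 genes. SAUR63, an auxin-induced growth protein, had 2183 and 2400 bases in seedlings and none in either root library (limma, adjusted p = 0.0195). It belonged to the longest run of neighbouring called genes, AT1G29430 to AT1G29460, 5 genes of which 4 had no covered base in roots. AT1G29460 kept 813 and 872 bases in roots. Other called genes with a SAUR symbol were SAUR27 (1890 and 1993 in seedlings, 62 and 0 in roots), SAUR15 (1983 and 2290, 544 and 398) and SAUR24 (1615 and 1980, 578 and 626). EXPA1, an expansin that loosens cell walls, had 1844 and 2112 in seedlings and 55 and 0 in roots (limma, adjusted p = 0.0195). BEE3, a bHLH factor of the brassinosteroid response, had 1833 and 1903 and none in roots (limma, adjusted p = 0.0195). FRO7, the chloroplast ferric chelate reductase, had 1819 and 1959 and none in roots (limma, adjusted p = 0.0269). CYP707A2, which breaks down abscisic acid, had 2001 and 2290 in seedlings and 462 and 0 in roots (limma, adjusted p = 0.034). COL1, a B-box protein related to CONSTANS, had 1652 in each seedling library and none in roots (limma, adjusted p = 0.0327). The resistance gene RLM3 (1653 and 2022) and the zinc finger gene LOL1 (1566 and 1916) also had no covered base in roots.

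Called genes often sat side by side. There were 21 runs of 2 or more neighbouring called genes with 50 genes in all, and 6 runs of 3 or more. Neighbouring windows overlap where genes are close, so the genes of a run can share regions, and those that do are not separate observations. The thalianol genes, all called higher, lay in separate stretches. Beside the SAUR63 run, BBX14, AT1G68526 and KCS6 formed one, with 331 and 0 bases in roots for the first 2 genes. AT4G16980, AT4G16983 and RLM3 formed another, in which AT4G16980 kept 1200 and 930 bases in roots of 2400 in both seedling libraries. In the run of AT5G12040, AT5G12043 and AT5G12050, the last 2 genes had none in roots, and AT5G12040 had 1588 and 1555 in seedlings and 364 and 362 in roots. COL1, AT5G15853 and PCME, a prenylcysteine methylesterase gene, formed the last of the lower runs, and PCME kept 439 and 366 bases. Of the 6 runs of 3 or more, the one of the thalianol genes was higher in roots. Calls were spread over all chromosomes, from 0.503% of tested genes on chromosome 3 to 0.849% on chromosome 1.

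Outside the lists, 7 called higher genes had a symbol. NAC080, a NAC transcription factor, had the largest difference, with 429 and 317 bases in seedlings and 2317 and 1635 in roots (limma, adjusted p = 0.0429). LBD13, a LOB domain factor, had 371 and 0 in seedlings and 1292 and 1209 in roots (limma, adjusted p = 0.0384). WRKY69, a WRKY factor, had 550 and 437 in seedlings and 1372 and 1357 in roots (limma, adjusted p = 0.0491). PTAC13, a protein of the plastid transcription complex, had 748 and 597 in seedlings and 1612 and 1623 in roots (limma, adjusted p = 0.0401). In these 4 genes both root libraries lay above both seedling libraries, and LBD13 alone of them had no covered base in a seedling library. SVL3, a glycerophosphodiesterase-like gene, had none in seedlings and 923 and 595 in roots (limma, adjusted p = 0.038). PLP5, a patatin-like lipase, had none in seedlings and 898 and 559 in roots (limma, adjusted p = 0.0424). PLP5 had none in the other seedling libraries either, and its SE of 111 lay below the root SD of 240, so its p-value may be too low. SVL3 (SE 111, root SD 232) and NAC080 (SE 246, root SD 482) share this limit. So do some lower calls, such as BDG1 (SE 214, seedling SD 390) and ATT1 (SE 209, root SD 328). At other calls the SE was the larger, as at WRKY69 (SE 140, SDs 79.9 and 10.6). DR4 had 191 and 0 in seedlings and 870 and 799 in roots (limma, adjusted p = 0.0424). Another 14 of the 25 had no symbol in the annotation.

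Regions were also compared without reference to genes. Regions of the 10 libraries were merged where they touched, and of 25147 merged regions tested, 96 had fewer covered bases in roots (0.382%) and 40 had more (0.159%; limma, Benjamini-Hochberg over all of them). Of the 96, 61 had no base in either root library, and of the 40, 32 had none in either seedling library. Regions at 0 in every seedling library of the series were tested only through the root libraries, and their p-values may be too low. The lower regions had a median length of 1839.5 bp, and the higher ones 821 bp. Part of this contrast is built in, since regions were merged over all 10 libraries, most of them from seedlings. The test was also on covered bases, which favours long regions. The largest loss was the Rubisco small subunit locus on chromosome 5, from 15376136 to 15385749, with 6753 and 9227 bases in seedlings and 0 and 0 in roots (limma, adjusted p = 0.034). Next came a region at HBI1, a bHLH growth factor, on chromosome 2 from 7949788 to 7958699, with 7262 and 8572 bases in seedlings and 2535 and 2228 in roots (limma, adjusted p = 0.0434). The region at LOL1 on chromosome 1, from 11766969 to 11773025, had 4054 and 5019 bases and none in roots (limma, adjusted p = 0.0325). The other 5 named losses were at AT3G06070, RLM3, AT2G24280, DER1 and EFE, an ethylene-forming enzyme, of which the RLM3 region had 4887 and 5552 bases in seedlings and 1374 and 1134 in roots. As for genes, limma called no region without root library 1, either seedling library or either library of 500 seedling nuclei, and without root library 2 it called 32 higher and 0 lower (1090 were lower at an unadjusted p under 0.05). Coordinates are those of the deposited lists, on TAIR10 per the submitters' processing notes.

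Among the largest gains, 6 of 8 regions touched a gene-end window and the other 2 touched none. A region between IRT2 and IRT1 on chromosome 4, from 10705727 to 10707530, had 404 and 0 bases in seedlings and 1716 and 1500 in roots (limma, adjusted p = 0.0325), although neither gene was called by its window. A region of chromosome 5 from 17035779 to 17038262 had none in seedlings and 2484 and 1425 in roots (limma, adjusted p = 0.0434), and its middle lay 3220 bp from CYP71A16, the P450 gene beside MRN1. The H2AX-GFP libraries had 239 and 257 bases in that region. The CYP708A2 region, from 19443581 to 19445789 on the same chromosome, had 414 and 0 in seedlings and 2209 and 1470 in roots (limma, adjusted p = 0.0411). Inside AT1G23720 on chromosome 1, from 8388170 to 8391534, both seedling libraries had none and the root libraries 3188 and 2917 (limma, adjusted p = 0.0325), the largest gain. It was not absent from all seedlings: library 2 of 500 seedling nuclei had 1174 bases there and H2AX-GFP library 2 had 633. A region at MLP31 and MLP34, major latex protein genes, had 927 and 41 bases in seedlings and 3346 and 2695 in roots (limma, adjusted p = 0.0449). One whose middle lay 3398 bp from AT4G15390 had 32 and 234 in seedlings and 2087 and 1590 in roots (limma, adjusted p = 0.0325). Regions at NAC074, a NAC factor, and at BHLH38 also had none in seedlings, with 1520 and 1049 and with 1491 and 1230 bases in roots. Among the 40, 10 touched no gene-end window, against 13 of the 96 lower regions.

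Most open regions were shared by both tissues. Of 25182 merged regions covered in at least 1 of the 4 libraries, 15200, or 60.36%, were covered in all 4. Both seedling libraries and no root library held 1568 (6.23%), and both root libraries and no seedling library 333 (1.32%). In comparison, 1791 were found in seedling library 1 alone and 1015 in root library 1 alone. With equal numbers of regions the tissue-only counts came closer, 1054 seedling-only and 820 root-only. Regions of 1 tissue were shorter than shared ones, with medians of 764 bp (seedling-only) and 503 bp (root-only) against 1267 bp for those in all 4. A merged region can only widen with each library that holds it, so part of this difference is built in. They also ranked low by the authors' score within their own library, with a median percentile of 25.8 and 23.6 in the seedling libraries and 23.8 and 17.1 in the root libraries, against 54.2 to 63.4 for shared regions. Of the 1568, 1560 were found in at least 1 of the 6 other seedling libraries of the series and 520 in all 6. Of the 333, 160 were found in none of those 6. More of the regions of 1 tissue had their middle over 1000 bp from any protein-coding gene, 23.3% and 25.8% against 11.8% of the shared ones.

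**Figure D5:**
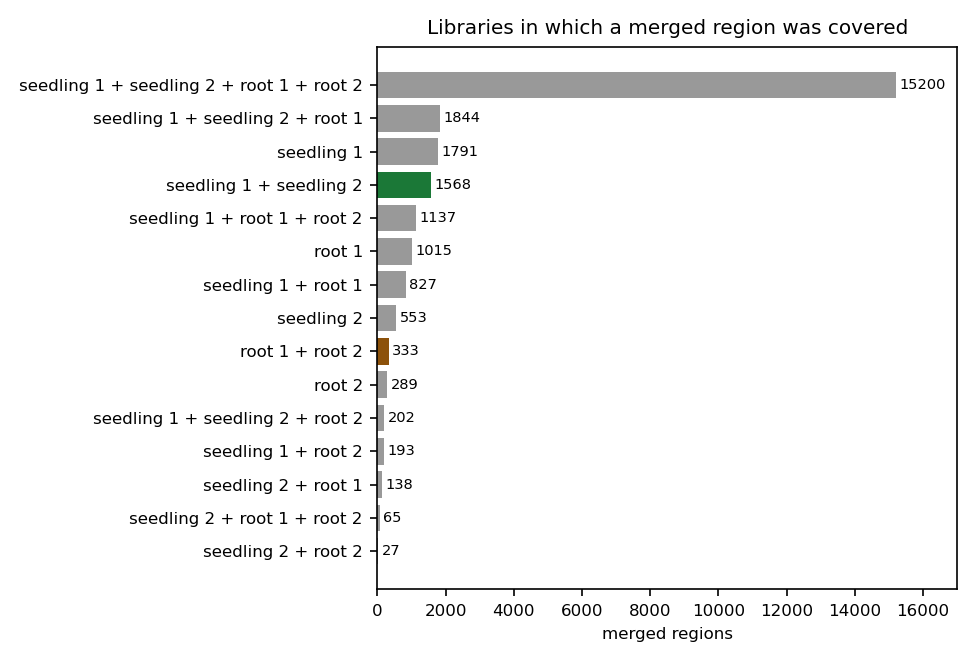
Number of merged regions (x axis) by the libraries that cover them, for the 15 possible patterns. Regions in all 4 libraries number 15200, seedling-only regions (green) 1568 and root-only regions (brown) 333, fewer than the 1015 in root library 1 alone.

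Over covered bases the libraries followed tissue only in part. The Jaccard index (shared over combined covered bases) was 0.7 between the seedling libraries and 0.638 between the root libraries. Between tissues it ran from 0.543 to 0.657, so that the closest seedling and root pair was more alike than the root pair. With 2 libraries against 2 no permutation test can give a p under 0.33, and none was made. Per gene, the median absolute difference between tissue means was 158.5 bases, against 158 between the seedling libraries and 173 between the root libraries. The value between tissues compares means of 2 libraries, and the values within a tissue compare single libraries. Means vary less than single libraries, so near-equal values do not show that tissue made no difference. How much tissue adds to the spread within a tissue was not tested.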

How the data were processed

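The authors deposited one list of called regions per library, each row a position and a score; what the deposited score measures, and which peak caller made it, is not given in the sources used. Scores were used only for ranks inside 1 library. Per the submitters' processing notes the build is TAIR10. Of 14 samples 10 had a list, in 5 groups of 2, and the other 4 were not analysed here. The 27444 protein-coding genes came from RefSeq's TAIR10.1 annotation, joined by position; in 20 of 20 library and chromosome pairs gene ends were covered more often (33.2% to 48% of them) than positions 5000 bp outside (13.4% to 21.3%). That table holds neither strand nor exons, so both gene ends were used, and without a genome sequence no sequence or motif was examined.

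Covered bases per gene (23893 covered in at least 2 libraries) or merged region were compared by limma (version 3.58.1, R 4.3.3, eBayes with the trend and robust options) over all 10 libraries, so that groups shared 1 estimate of spread. Calls took a Benjamini-Hochberg adjusted p under 0.05. The procedure was tested on simulated data, where at the spread of these libraries it missed most of the simulated decreases. Same-numbered seedling and root libraries share only a number (correlation of their deviations across genes -0.07), so no pairing was used. All 391 genes of the 15 lists were found by locus tag. The comparison, the members and the lists were chosen with earlier results of these data known, so that no list is independent support.

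Named genes were the called members of each list (up to 8 a direction), each list's highest and lowest member, up to 10 called genes with a symbol per direction outside the lists, up to 8 called regions per direction, and genes in runs of 3 or more called neighbours. Other genes named beside them (among them PSBO2, FD2, RBCS1A, RBCS3B, GLK2, HY5, DCR, THAS1, MRN1, PEN3, PYK10, BHLH39, IRT1, NRT1.9, RSL4, GPAT5, KCS2, FAR5, AUX1, PIN3, ACT2 and SAUR24, and the regions at GLK2, YAB2 and PIN4) were chosen after their values were seen. Among the highest and lowest list members, EXPA18, MYB106, SDD1, CRA1 and SEP3 were not described above (differences 677, 73.5, 50, 19 and -671 bases). None of them was called. Alternatives covered window width, scaling, quantile normalization, region number and score, the filter, the fit, a replicate block and leaving out each library; non-overlap counts under equal numbers, scaling and left-out libraries were added after seeing the data. Python 3.11.15 with numpy 2.4.6, pandas 2.3.3 and matplotlib 3.10.9 was used.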

Additional observations from a re-analysis of the deposited data

How the results depend on the processing

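Counts of calls moved with nearly every choice. Among the 50 named called genes, the settings that kept the call ran from 3 of 19 (PHO1) to 13 of 20 (KCS6). None of the 50 changed the sign of its difference. That is little support, since several settings leave the difference as it is. Groups that do not overlap also keep their sign when 1 library is left out. Of genes, limma called 55 higher and 256 lower with windows of 500 bp, 6 and 41 with 2000 bp, 24 and 22 after division by covered length, 119 and 160 after quantile normalization, 90 and 190 with equal numbers of regions, 193 and 289 with the better-scoring 50% of regions, 44 and 233 without a filter, and 22 and 232 with plain eBayes. With the replicate block 11 and 67 genes and 0 and 0 merged regions were called (961 and 2306 regions at an unadjusted p under 0.05); same-numbered libraries share only a number. With only the 4 libraries in the fit limma called 0 genes (356 higher and 2448 lower at an unadjusted p under 0.05) and 0 merged regions (582 and 2745). Leaving out each of the 10 libraries gave 0 to 20 genes higher and 0 to 189 lower, and 0 to 48 regions higher and 0 to 124 lower. The genes were 0 without root library 1 (257 higher and 2321 lower at an unadjusted p under 0.05), without seedling library 1 (667 and 1557) or 2 (212 and 1501), and without either library of 500 seedling nuclei (395 and 1847, 394 and 1854); without each of these 5 libraries 0 merged regions were called too (371 to 1043 higher and 1679 to 2208 lower at an unadjusted p under 0.05). Merged regions called were 64 higher and 28 lower after division by covered length, 147 and 180 with equal numbers, 249 and 255 with the better-scoring 50%, 40 and 179 with plain eBayes, and 0 and 45 as covered fractions (the cause was not tested). Root-only regions numbered 519 under a minimum of 50% coverage per merged region and 820 with equal numbers. Leaving out 1 of the 4 libraries gave 1770 to 3412 seedling-only and 398 to 1470 root-only regions, since 1 library then stands for a tissue. The medians of the photosystem, carbon fixation, chlorophyll, light, meristem, stomata, cuticle, iron, transport, root hair, root metabolism and housekeeping lists stayed on the same side of the all-gene median in 14 of 14 settings, those of the endodermis list in 13, of the stem cell niche and seed lists in 9. This too is little support, since some of the 14 settings, such as plain eBayes and the replicate block, cannot move a list's median. Depth is unknown, so a gene at 0 had no called region, which does not show closed chromatin.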

Other observations

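The other 6 seedling libraries of the series (500 sorted nuclei, 50000 nuclei labelled as crude, and 50000 nuclei of the 35S:H2AX-GFP line, 2 each) were in no part of the tissue contrast beyond its estimate of spread. At 4 genes lower in roots, chosen after their values were seen, the 6 lay far above the root libraries: RBCS2B had 1668 to 2400 covered bases in the 6 (median 2149.5), KCS6 1354 to 1802 (median 1725.5), GLK1 1026 to 1540 (median 1501) and SAUR63 1761 to 2400 (median 2215). Other called lower genes had a smaller median in the 6: FDH had 690, ATCSLC08 457 (1448 and 1773 in the seedling libraries of the comparison) and UBP19 650 (1718 and 1860). These medians hide a split by preparation. In the H2AX-GFP libraries ATCSLC08 had 1409 and 1491 bases, UBP19 1666 and 1938, and FDH 1244 and 910. In the other 4 the ranges were 120 to 567, 237 to 721 and 496 to 754. CYP708A2, AT5G47980 and PLP5 had none in any of the 6. BHLH38 had between 0 and 458 (median 0), and CYP705A5 between 0 and 402 (median 97.5). PHO1 was at 0 in 4 of the 6 and had 334 and 327 bases in the H2AX-GFP libraries. The 4 seedling groups and the root group share the same fit, so these values are no separate test.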
